A study of Mus musculus with 190 samples.

Results

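Whole-blood RNA of 1 cohort of NC/Nga mice with dermatitis was compared between a first sampling on day 26 and a second on day 40, an interval of 14 days. The members were the 10 libraries titled group 8 on day 26 and the 10 titled group 8 on day 40, taken by their labels, out of 190 libraries in the series, and they are called cohort 8 here. All 20 came from male mice of the NC/Nga strain, genotype WT, kept under conventional housing, the condition in which this inbred strain develops a dermatitis resembling atopic dermatitis. The study obtained blood transcriptomes before and after onset of the dermatitis and across its severity. The labels give no treatment and no age beyond the sampling day. The visible dermatitis score was 0 in 2 libraries, 0.5 in 1, 1 in 5 and 2 in 2 on day 26, with a median of 1. On day 40 it was 0.5 in 1 library, 2 in 8 and 3 in 1, with a median of 2. Between libraries of the same label number, 8 scores were higher on day 40, 2 were equal and 0 were lower. The labels do not state that a number marks the same mouse at both samplings, so the 20 libraries were treated as separate samples, and the p-values measure the spread between these libraries.

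Other cohorts served as comparisons for the change between samplings. Cohort 9 was sampled on day 30 and day 44, also 14 days apart, and cohort 6 on day 19 and day 40, 21 days apart, with 10 libraries on each day. Both were male WT NC/Nga mice under conventional housing, with median scores of 2 and 2.5 in cohort 9 and of 0 and 1.5 in cohort 6. The study's controls were male WT NC/Nga mice kept specific-pathogen-free (SPF), sampled on day 16 and day 44, 28 days apart, with 5 libraries on each day, all scored 0.

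Blood RNA is a mixture. Erythrocytes and their precursors supply globin and haem enzyme transcripts, platelets carry RNA left from megakaryocytes, and the leukocytes are lymphocytes, monocytes and granulocytes. Neutrophils are short-lived granulocytes released from bone marrow under granulocyte colony-stimulating factor. They reach inflamed skin through chemoattractant receptors, selectin ligands and integrins, and kill microbes with granule proteins and an oxidase. Natural killer (NK) cells are lymphocytes that kill target cells through granzymes and perforin and sense them through lectin-like receptors. Eosinophils, basophils and mast cells are the effector cells of type 2 immunity, which runs on interleukins 4, 5 and 13 and is prominent in atopic dermatitis.

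The erythroid, platelet, B cell, T cell and neutrophil marker lists were detected in all 20 libraries. Total expected counts ran from 31246026 to 71967285 on day 26 and from 25290655 to 51342305 on day 40. Globin genes held a median 8.61% of counts on day 26 and 7.58% on day 40, and mitochondrial ribosomal RNA 15.9% and 15.3%. The library kit depletes ribosomal and globin RNA, so the globin shares are those left after depletion. The signal recognition particle RNA genes Rn7s1 and Rn7s2, summed with Rn7sk, held 20.2% and 18.3%. Values below are CPM, counts relative to library size after scaling by the trimmed mean of M-values (TMM), and log2 changes are day 40 relative to day 26.

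One day 26 library stood apart from the rest of its day. Replicate 1, scored 2, had a mean Pearson correlation of 0.969 with the other 9 libraries of day 26 across the 14086 genes tested, against 0.985 to 0.989 for each of those 9. Its summed mature neutrophil markers were 10389 CPM, where the other 9 libraries of the day reached at most 3585 CPM, and its summed B cell markers were the lowest of all 20 libraries at 368 CPM. It was the highest day 26 library for 62.9% of the genes that rose by day 40 and the lowest for 46.5% of those that fell. The other day 26 library scored 2, replicate 5, was the highest for 1.64% of the genes that rose. On day 40, replicate 1 had a mean correlation of 0.969 with its 9 fellows, against 0.980 to 0.985 for each of those, and the highest level of the proliferation gene Mki67. No label sets either library apart, and the main counts below are given with and without day 26 replicate 1 where it changes them.

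**Figure D1:**
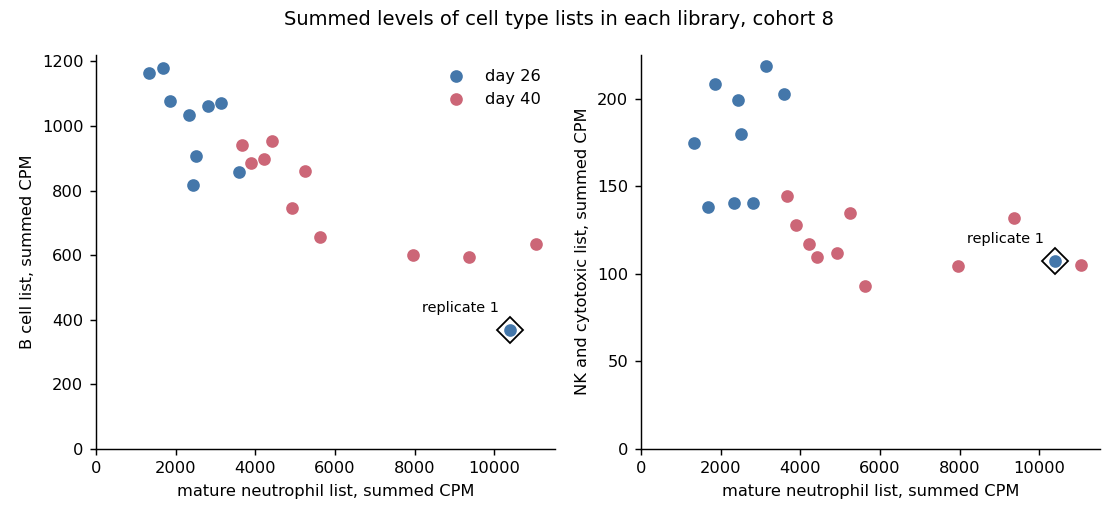
Each point is 1 of the 20 libraries of cohort 8, with the summed CPM of the mature neutrophil list on the horizontal axis and of the B cell list (left) or the NK and cytotoxic list (right) on the vertical axis, blue for day 26 and red for day 40. The ringed library is day 26 replicate 1, at 10389 CPM of neutrophil markers and 368 CPM of B cell markers, and it lies beyond the other 9 libraries of its day on both axes.

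Expression rose more often than it fell between the samplings. Of 14086 genes tested, 1111 (7.89%) passed an edgeR adjusted p under 0.05, of which 795 (5.64% of all tested) were higher on day 40 and 316 (2.24%) were lower, and the median log2 change of all genes was 0.01. Of the 1111 genes, 1011 are protein coding. The change was at least 1 on the log2 scale in 14.6% of the genes that rose and in 10.4% of those that fell. The call held for 503 genes, 387 of them higher, whichever single library was left out. Without day 26 replicate 1 the count was 2552 of 14172 (18%), 1508 higher (10.6%) and 1044 lower (7.37%), and 1110 of the 1111 genes were among them. Without any 1 other library it ran from 545 (day 40 replicate 3) to 1433 (day 40 replicate 5). The libraries whose removal lowered it by over 1.5 times were day 26 replicates 2 (718), 3 (695), 4 (727), 7 (618), 9 (617) and 10 (613) and day 40 replicates 3 (545), 7 (657) and 10 (704). The count was 488 with the dermatitis score as a covariate, 583 with the globin and mitochondrial rRNA shares as covariates, 301 among libraries scored 1 or more and 237 in a fit of all 190 libraries. The median score was 1 on day 26 and 2 on day 40, so the parts of day and score cannot be told apart.

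**Figure D2:**
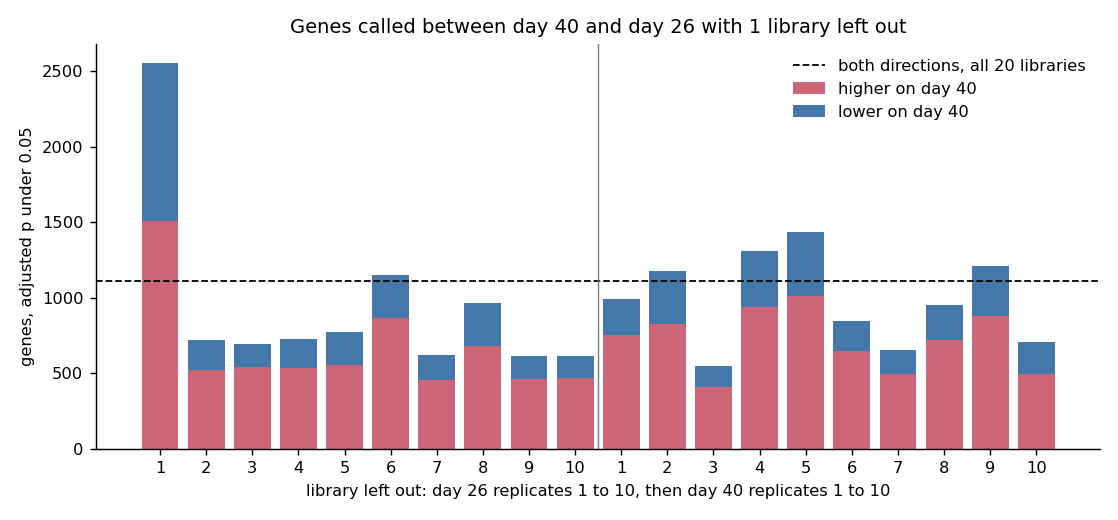
Bars give the number of genes with an edgeR adjusted p under 0.05 when the library on the horizontal axis is left out, red for genes higher on day 40 and blue for lower, and the dashed line marks the 1111 genes called with all 20 libraries. Leaving out day 26 replicate 1 gives 2552 genes, and leaving out day 40 replicate 3 gives 545.

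Transcripts of mature neutrophils were higher on day 40. Of 21 tested members of the mature neutrophil list 12 rose, 0 fell and 9 did not pass, and the list's median log2 change was 0.94 beside 0.01 for all genes. The background of genes called higher was 5.64%, and 10.6% without day 26 replicate 1. All 21 estimates were positive, from 0.59 for Trem1 to 1.67 for Ly6g. All 21 were called without day 26 replicate 1, and the median was then 1.21. The count fell to between 3 and 7 without day 26 replicate 2, 4, 5, 7, 9 or 10 or without day 40 replicate 3, 7 or 10. In bulk blood, more cells of a type and more RNA per cell cannot be told apart, nor can fewer cells and less RNA.

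Steap4, a metalloreductase of inflamed tissue and neutrophils (chromosome 5, 8010457 to 8032213, GRCm39), ranged from 10.3 to 119.4 CPM on day 26 (median 32.98) and from 75.8 to 209.3 on day 40 (median 101.4). The value of 119.4 on day 26 belonged to replicate 1, and the other 9 libraries of that day lay at or below 55.1 CPM, under the whole day 40 range. Its log2 change was 1.58 ± 0.34 (SE; edgeR adjusted p = 0.00978), and 1.88 without replicate 1. Csf3r, the receptor for granulocyte colony-stimulating factor, ranged from 83.3 to 311 CPM on day 26 (median 142.3) and from 198.97 to 384 on day 40 (median 254). All 10 day 40 libraries were above the day 26 median and 3 were above the highest day 26 library, with a log2 change of 0.82 ± 0.20 (SE; edgeR adjusted p = 0.0166). Mmp9, the gelatinase B that neutrophils carry in granules, ranged from 24.6 to 92.02 CPM on day 26 (median 44.4) and from 55.4 to 158.4 on day 40 (median 86.1). Here 5 of 10 day 40 libraries exceeded every day 26 library, and the log2 change was 1.01 ± 0.23 (SE; edgeR adjusted p = 0.0115).

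The chemoattractant receptors of neutrophils moved the same way. Cxcr2, the receptor for CXC chemokines, ranged from 73.9 to 394 CPM on day 26 (median 128.8) and from 210.9 to 486 on day 40 (median 255), a log2 change of 1.00 ± 0.26 (SE; edgeR adjusted p = 0.0252). Fpr1 and Fpr2, which sense formylated bacterial peptides, changed by 1.12 and 0.98. Ly6g, the surface antigen that defines mouse neutrophils, had the steepest estimate of the list but a wide one, 1.67 ± 0.47 (SE; edgeR adjusted p = 0.0362), and near-identical genes of its family may share its reads. Acod1, which makes the metabolite itaconate, rose by 1.43, the protease inhibitor Slpi by 0.77, Wfdc21 by 1.32 and Wfdc17 by 1.04. Hcar2, a receptor for niacin and ketone bodies, rose by 0.76.

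The calprotectin genes were the most abundant members and did not pass. On the authors' TPM scale, which corrects for transcript length, S100a9 had a median of 948 on day 26 and 2650.4 on day 40, and S100a8 had 734 and 1940.1. The next members were Retnlg with a median of 158.3 TPM on day 40 and Wfdc17 with 96.5. The log2 change of S100a9 was 0.94 ± 0.32 (SE; edgeR adjusted p = 0.0651) and that of S100a8 was 0.89 ± 0.37 (SE; edgeR adjusted p = 0.136). They were, without day 26 replicate 1, 1.33 (edgeR adjusted p = 0.000690) and 1.36 (edgeR adjusted p = 0.00182).

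Promoter sequences of the neutrophil members were examined because the members moved together. The window is the 250 bases before the start site in RefSeq (GRCm38.p6), and 9 of the 12 called members had 10 windows. TTGCNNAA, the core recognised by C/EBP factors that drive granulocyte genes, was searched on both strands. It was present in 3 of 10 windows (30.0%), beside 3142 of 32851 windows of all genes (9.56%). In the whole mature neutrophil list it was present in 6 of 20 windows (also 30.0%). Steap4 and Slpi are printed as the called members with the smallest p whose window holds it, 5′ to 3′ on the gene's strand, with the match in capitals.
Steap4 (chr5:7960222-7960471, plus strand): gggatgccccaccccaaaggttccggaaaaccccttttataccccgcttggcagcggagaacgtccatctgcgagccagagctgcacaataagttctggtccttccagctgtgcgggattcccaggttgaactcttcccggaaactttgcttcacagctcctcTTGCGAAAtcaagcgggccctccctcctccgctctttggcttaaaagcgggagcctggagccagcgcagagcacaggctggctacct
Slpi (chr2:164356508-164356757, minus strand): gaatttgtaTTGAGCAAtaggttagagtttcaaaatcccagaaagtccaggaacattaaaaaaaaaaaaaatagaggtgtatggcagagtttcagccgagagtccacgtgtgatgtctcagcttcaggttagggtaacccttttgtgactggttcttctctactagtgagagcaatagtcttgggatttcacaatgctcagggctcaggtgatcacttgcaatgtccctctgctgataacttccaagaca
The match begins 87 bases before the start in Steap4 and 241 bases before it in Slpi. Binding at these letters was not measured, and no site is claimed.

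Granule genes of later neutrophil precursors rose in part. Of 9 tested members 4 rose, 0 fell and 5 did not pass, with a median of 0.83, beside 5.64% of all genes higher. Lcn2, the iron-trapping protein lipocalin 2, ranged from 6.71 to 35.6 CPM on day 26 (median 11.7) and from 19.2 to 77.04 on day 40 (median 27.5), and its log2 change was 1.36 ± 0.32 (SE; edgeR adjusted p = 0.0166). Pglyrp1, which binds bacterial peptidoglycan, ranged from 2.03 to 6.49 CPM on day 26 (median 3.02) and from 3.26 to 10.3 on day 40 (median 5.86), a log2 change of 0.94 ± 0.22 (SE; edgeR adjusted p = 0.0153). Mmp8, the neutrophil collagenase, changed by 1.37 ± 0.40 (SE; edgeR adjusted p = 0.0394), and its highest day 26 value, 154.01 CPM, was again in replicate 1, with every other library of that day at or below 52.4. Chil3, a chitinase-like protein, changed by 0.83 ± 0.25 (SE; edgeR adjusted p = 0.0415). Of the classic secondary granule genes Ltf had an estimate of 0.73 and Camp of 0.30, and neither passed. The primary granule genes Mpo, Elane, Ctsg and Prtn3, made by early precursors in marrow, were too low to test, with Elane at 0 in every day 40 library. The count of 4 became 2 without day 26 replicate 2, 3, 4, 5, 7 or 9 or day 40 replicate 1, 3, 7 or 10.

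**Figure D3:**
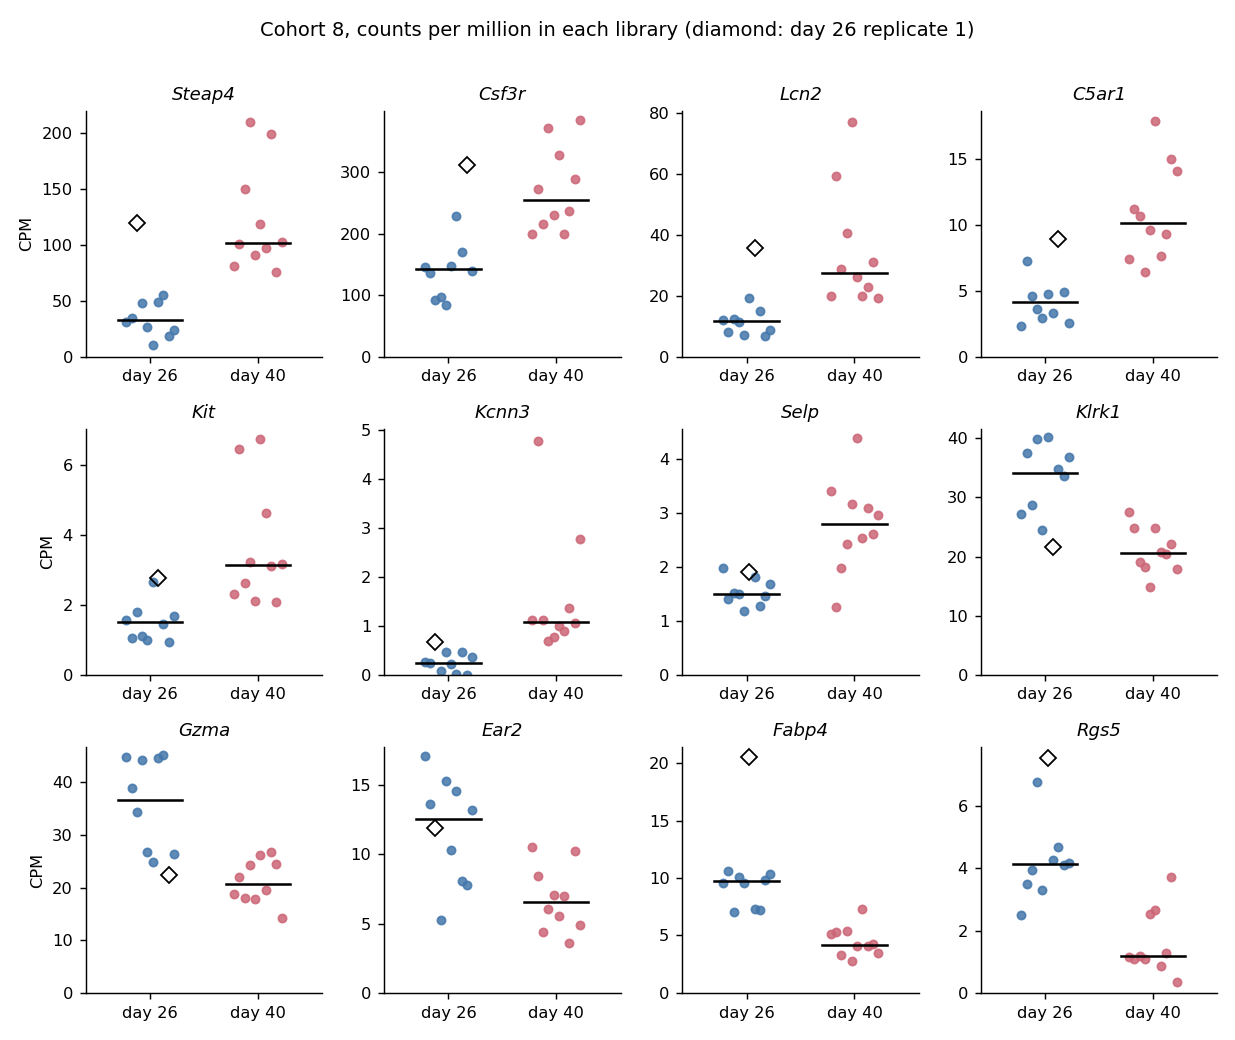
Each panel shows 1 gene, with CPM in each library on a linear axis from 0, day 26 in blue and day 40 in red, black lines at the medians and a diamond for day 26 replicate 1. Steap4, Csf3r, Lcn2, C5ar1, Kit, Kcnn3 and Selp have higher medians on day 40, and Klrk1, Gzma, Ear2, Fabp4 and Rgs5 lower ones, and in Kcnn3 every day 40 library is above every day 26 library.

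Receptors for complement and antibody-coated particles rose in 5 of 12 tested genes, with 0 lower and a median of 0.51. Among all genes tested 5.64% were higher, and 10.6% without day 26 replicate 1. C5ar1, the receptor for the anaphylatoxin C5a (chromosome 7, 15980668 to 15993465, GRCm39), ranged from 2.31 to 8.93 CPM on day 26 (median 4.12) and from 6.46 to 17.9 on day 40 (median 10.1). Of the day 40 libraries 7 exceeded every day 26 library, the log2 change was 1.29 ± 0.23 (SE; edgeR adjusted p = 0.00531), and the call held without any 1 library. Itgb2 and Itgam, the chains of the complement receptor Mac-1, changed by 0.52 ± 0.12 (SE; edgeR adjusted p = 0.00970) and 0.53 ± 0.15 (SE; edgeR adjusted p = 0.0362). The second C5a receptor C5ar2 rose by 0.71 and the low-affinity Fc receptor Fcgr3 by 0.70. C3, Fcgr1 and Fcgr2b had estimates of 0.19, 0.07 and 0.09 and did not pass. The count was 6 without day 26 replicate 1, and 2 or 3 without any of day 26 replicates 2, 3, 4, 5, 7, 8, 9 and 10 or day 40 replicates 1, 3, 6, 7, 8 and 10.

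Among genes of the interleukin 1 and Toll-like receptor pathway and the inflammasome, which senses microbial products, 5 of 23 rose and 0 fell. The median was 0.50. The all-gene shares were 5.64% higher and 2.24% lower, and 10.6% and 7.37% without day 26 replicate 1. Myd88, the adaptor shared by these receptors, ranged from 12.4 to 40.8 CPM on day 26 (median 20.3) and from 22.3 to 43.3 on day 40 (median 36.3), and its log2 change was 0.67 ± 0.17 (SE; edgeR adjusted p = 0.0203). Tlr2, the receptor for bacterial lipoproteins, changed by 0.98 ± 0.27 (SE; edgeR adjusted p = 0.0295). The NLR genes Nlrp3 and Nlrp12 rose by 0.63 and 0.78, and Irak3, an inhibitor of the pathway, by 0.27. Interleukin 1 beta itself, Il1b, had an estimate of 0.29 ± 0.25 (SE; edgeR adjusted p = 0.505) and Il18 of -0.19 ± 0.23 (SE; edgeR adjusted p = 0.653). Leaving out day 26 replicate 1 gave 15 higher and 1 lower, Naip5. The count fell to between 1 and 3 without day 26 replicate 2, 3, 4, 5, 7, 8, 9 or 10 or day 40 replicate 3, 6, 7, 8 or 10. The summed mature neutrophil markers went from a median of 2479 to 5087 CPM in the same libraries, and their part in the rise of these genes, of the oxidase and of the complement, JAK-STAT and lipid mediator genes was not tested.

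Some cytokine signalling genes rose in each of the lists examined. In the JAK-STAT and interleukin 6 family list, 3 of 15 rose, 0 fell and the median was 0.40. Of all genes tested 5.64% rose, and 10.6% without day 26 replicate 1. Stat3, the transcription factor downstream of interleukin 6 and granulocyte colony-stimulating factor, ranged from 32.05 to 56.9 CPM on day 26 (median 36.8) and from 46.8 to 78.1 on day 40 (median 62.97). All 10 day 40 libraries were above the day 26 median and 6 were above its highest library, a log2 change of 0.64 ± 0.11 (SE; edgeR adjusted p = 0.00522). Socs3, the feedback inhibitor that STAT3 induces, changed by 0.97 ± 0.27 (SE; edgeR adjusted p = 0.0312), and Stat5b by 0.40 ± 0.11 (SE; edgeR adjusted p = 0.0336). The count was 9 without day 26 replicate 1, without its replicate 6 it was 5, and it fell to 1 without day 26 replicate 2, 3, 4, 5, 7, 9 or 10 or day 40 replicate 3, 7 or 10.

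Of the type 2 cytokine receptor and signalling genes, 5 of 17 rose and 1 fell, with a median of 0.23. The all-gene shares were 5.64% higher and 2.24% lower. Il4ra, the chain shared by the receptors for interleukins 4 and 13, ranged from 35.9 to 68.7 CPM on day 26 (median 41.4) and from 44.6 to 104.5 on day 40 (median 72.97). Its log2 change was 0.63 ± 0.14 (SE; edgeR adjusted p = 0.00978), with 6 day 40 libraries above every day 26 library. Csf2rb, the beta chain shared by the receptors for interleukins 3 and 5 and for granulocyte-macrophage colony-stimulating factor, changed by 0.97 ± 0.21 (SE; edgeR adjusted p = 0.00998). The related gene Csf2rb2 changed by 0.81 ± 0.15 (SE; edgeR adjusted p = 0.00525). The kinase Jak3 rose by 0.46 and Stat6, the transcription factor of interleukin 4, by 0.38. Il5ra, the alpha chain of the interleukin 5 receptor, was the member that fell, with a log2 change of -0.54 ± 0.14 (SE; edgeR adjusted p = 0.0238). Gata3, Crlf2, Il1rl1 and Ccr4 did not pass, with estimates of -0.07, 0.23, -0.01 and 0.46. The higher count was 3 without day 40 replicate 3, and Il5ra lost its call without that library or without day 26 replicate 3 or 9. The summed mature neutrophil markers moved with these genes, and their part in the rise was not tested.

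Lipid mediator and adhesion genes included some of the same direction. Of 15 leukotriene and prostaglandin genes 4 rose and 0 fell, with a median of 0.33. The share of all genes that rose was 5.64%, and 10.6% without day 26 replicate 1. Alox5, which starts leukotriene synthesis, ranged from 8.06 to 26.7 CPM on day 26 (median 13.3) and from 15.4 to 35.5 on day 40 (median 22.2), a log2 change of 0.80 ± 0.20 (SE; edgeR adjusted p = 0.0190), and its activating protein Alox5ap changed by 0.56 ± 0.17 (SE; edgeR adjusted p = 0.0375). Ptgs1, the constitutive cyclooxygenase, rose by 0.61 and the platelet lipoxygenase Alox12 by 0.46. The count was 1 or 2 without day 26 replicate 3, 4, 5, 7, 9 or 10 or day 40 replicate 1, 3, 6, 7 or 10. Of the 6 oxidase subunits Rac2 rose, by 0.56 ± 0.11 (SE; edgeR adjusted p = 0.00624), and the catalytic subunit Cybb had an estimate of -0.17. The oxidase count was 4 without day 26 replicate 1 and 2 without day 40 replicate 4 or 9.

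Of 18 homing receptor genes 2 rose and 2 fell, where 5.64% of all genes rose and 2.24% fell. Without day 26 replicate 1, 4 fell, where 7.37% of all genes fell. Selplg, the ligand for P-selectin on leukocytes, ranged from 24.7 to 65.1 CPM on day 26 (median 33.02) and from 43.4 to 86.3 on day 40 (median 69.4), a log2 change of 0.82 ± 0.17 (SE; edgeR adjusted p = 0.00837). Itgal, the alpha chain of LFA-1, changed by 0.42 ± 0.10 (SE; edgeR adjusted p = 0.0116). Cxcr4, the chemokine receptor that retains cells in marrow, ranged from 47.7 to 82.1 CPM on day 26 (median 60.9) and from 41.5 to 60.8 on day 40 (median 46.5) and fell by 0.39 ± 0.09 on the log2 scale (SE; edgeR adjusted p = 0.0140). Ccr9, a gut-homing receptor also found on plasmacytoid dendritic cells, fell by 0.70 ± 0.18 on the log2 scale (SE; edgeR adjusted p = 0.0183).

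Platelet transcripts rose in part. Of 18 tested members 9 rose, 0 fell and 9 did not pass, and all 18 estimates were positive with a median of 0.45. Among all genes 5.64% rose, and 10.6% without day 26 replicate 1. Selp, the P-selectin of platelet granules, ranged from 1.18 to 1.98 CPM on day 26 (median 1.505) and from 1.26 to 4.40 on day 40 (median 2.79). In 9 of 10 day 40 libraries it was above every day 26 library, and its log2 change was 0.81 ± 0.16 (SE; edgeR adjusted p = 0.00662). Nrgn, a calmodulin-binding protein abundant in platelets, ranged from 11.03 to 17.1 CPM on day 26 (median 13.1) and from 12.002 to 24.9 on day 40 (median 19.8), a log2 change of 0.53 ± 0.11 (SE; edgeR adjusted p = 0.00662). Gp1bb, a chain of the von Willebrand factor receptor, changed by 0.71 ± 0.17 (SE; edgeR adjusted p = 0.0130), and its partners Gp1ba and Gp5 rose by 0.46 and 0.45. The fibrinogen receptor chains Itgb3 and Itga2b rose by 0.71 and 0.55, thrombospondin (Thbs1) by 0.79 and the thrombin receptor F2rl2 by 0.42. The most abundant members, the chemokines Pf4 at a median 642 TPM and Ppbp at 444 TPM on day 40, had estimates of 0.11 ± 0.14 (SE; edgeR adjusted p = 0.681) and 0.17 ± 0.13 (SE; edgeR adjusted p = 0.456). The count was 11 without day 26 replicate 1 and 5 without its replicate 7.

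For the platelet members the search was for AGATAA, the letters bound by GATA factors of the megakaryocyte lineage, on both strands of the same kind of window. It was present in 2 of 7 windows of called members (28.6%), in 3 of 15 windows of the whole list (20%) and in 3281 of 32851 windows of all genes (9.99%). The 2 called members that hold it are Gp5 and F2rl2, printed as above with the match in capitals.
Gp5 (chr16:30310782-30311031, minus strand): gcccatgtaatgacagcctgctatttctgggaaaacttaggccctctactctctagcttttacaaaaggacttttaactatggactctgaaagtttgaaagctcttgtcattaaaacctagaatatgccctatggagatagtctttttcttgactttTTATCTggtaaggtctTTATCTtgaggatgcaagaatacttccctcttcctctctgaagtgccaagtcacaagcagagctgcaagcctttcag
F2rl2 (chr13:95696670-95696919, plus strand): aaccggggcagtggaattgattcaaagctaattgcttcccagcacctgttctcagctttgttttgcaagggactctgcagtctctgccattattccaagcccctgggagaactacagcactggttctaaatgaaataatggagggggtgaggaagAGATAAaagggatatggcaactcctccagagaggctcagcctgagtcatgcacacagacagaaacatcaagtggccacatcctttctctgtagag
Gp5 holds 2 matches, which begin 93 and 77 bases before the start, and F2rl2 holds 1, which begins 95 bases before it.

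NK cell transcripts were lower on day 40. Of 16 tested members of the NK and cytotoxic list 6 fell, 0 rose and 10 did not pass, and all 16 estimates were negative with a median of -0.45. The background of genes called lower was 2.24%, and 7.37% without day 26 replicate 1. The summed level ran from 107.05 to 219.00 (median 177.5) CPM on day 26 and from 93.04 to 144.2 (median 114.5) on day 40. No single library lowered the count below 6, and without day 26 replicate 1 it was 12.

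Klrk1, the activating receptor NKG2D (chromosome 6, 129587286 to 129600827, GRCm39), ranged from 21.5 to 40.3 CPM on day 26 (median 34.2) and from 14.9 to 27.5 on day 40 (median 20.7). All 10 day 40 libraries were below the day 26 median and 6 were below its lowest library, a log2 change of -0.63 ± 0.12 (SE; edgeR adjusted p = 0.00625). Klrb1c, the NK1.1 antigen, ranged from 11.5 to 25.9 CPM on day 26 (median 18.02) and from 9.75 to 14.2 on day 40 (median 11.2), a log2 change of -0.64 ± 0.12 (SE; edgeR adjusted p = 0.00594). Gzma, a serine protease of cytotoxic granules, ranged from 22.3 to 45.1 CPM on day 26 (median 36.6) and from 14.2 to 26.8 on day 40 (median 20.8), with 6 day 40 libraries below every day 26 library and a log2 change of -0.74 ± 0.15 (SE; edgeR adjusted p = 0.00662). Ncr1, the receptor NKp46, changed by -0.70 ± 0.14 (SE; edgeR adjusted p = 0.00709), Klra8, the receptor Ly49H, by -0.76 ± 0.19 (SE; edgeR adjusted p = 0.0194), and Klre1 by -0.67 ± 0.17 (SE; edgeR adjusted p = 0.0207). Reads of the Klra family may be shared among near-identical members. Among the members that did not pass, estimates were -0.31 for perforin (Prf1), -0.17 for Gzmb, -0.23 for Nkg7, -0.12 for Il2rb and -0.10 for Tbx21. Klrd1, the CD94 partner of NK receptors placed in the dendritic cell list, fell by 0.61 ± 0.16 on the log2 scale (SE; edgeR adjusted p = 0.0238).

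Eosinophil markers fell in part. Of 8 tested members 4 fell, 0 rose and the median was -0.58, beside 2.24% of all genes lower. Estimates were negative for 5 members and positive for 3, and ran from -1.49 to 0.57. Ear2, an eosinophil ribonuclease, ranged from 5.29 to 17.1 CPM on day 26 (median 12.5) and from 3.57 to 10.5 on day 40 (median 6.54), a log2 change of -0.80 ± 0.21 (SE; edgeR adjusted p = 0.0249). Il5ra ranged from 2.90 to 6.82 CPM on day 26 (median 4.79) and from 2.43 to 4.81 on day 40 (median 3.06), and Alox15, the lipoxygenase of eosinophils, from 2.76 to 4.603 CPM on day 26 (median 3.46) and from 1.17 to 3.35 on day 40 (median 2.54), a log2 change of -0.62 ± 0.16 (SE; edgeR adjusted p = 0.0218). Ear6, another ribonuclease of the family, fell by 1.49 ± 0.42 on the log2 scale (SE; edgeR adjusted p = 0.0313), and the Ear genes are near-identical copies that may share reads. The surface receptors did not pass, with -0.63 ± 0.20 (SE; edgeR adjusted p = 0.0604) for Ccr3 and 0.06 ± 0.18 (SE; edgeR adjusted p = 0.884) for Siglecf, and the granule genes Prg2, Prg3, Epx and Ear1 were too low to test. The count was 2 without day 26 replicate 3 or 10 and 1 without day 26 replicate 9 or day 40 replicate 3. The summed level of the list did not follow the 4 genes, at 65.05 to 117.4 (median 78.03) CPM on day 26 and 58.6 to 100.3 (median 83.3) on day 40.

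Of 11 basophil and mast cell genes 2 were higher and 1 was lower, with a median of 0.00. Among all genes tested 5.64% were higher and 2.24% lower. The summed list had a median of 69.8 CPM on day 26 and 106.5 CPM on day 40, with the highest value of all 20 libraries, 167.4 CPM, in day 26 replicate 1. The typical member did not follow this sum, with 6 positive and 5 negative estimates. Which members carried the higher sum is not stated here. Kit, the stem cell factor receptor of mast cells and progenitors, ranged from 0.939 to 2.76 CPM on day 26 (median 1.51) and from 2.08 to 6.73 on day 40 (median 3.14), a log2 change of 1.19 ± 0.25 (SE; edgeR adjusted p = 0.00877) that held without any 1 library. Gata2, a transcription factor of progenitors and mast cells, changed by 0.62 ± 0.16 (SE; edgeR adjusted p = 0.0233) and lost its call without day 40 replicate 7 (edgeR adjusted p = 0.0512). Cma1, a chymase of connective tissue mast cells, ranged from 0.932 to 3.38 CPM on day 26 (median 2.61) and from 0.212 to 1.52 on day 40 (median 1.21) and fell by 1.10 ± 0.25 on the log2 scale (SE; edgeR adjusted p = 0.0115). The basophil markers Mcpt8, Ms4a2, Cpa3, Cd200r3 and Fcer1a did not pass, with estimates of -0.32, -0.09, -0.01, 0.01 and 0.00.

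B cell genes were lower in every estimate, but few passed. Of 17 tested members 1 fell, 0 rose, and the median was -0.33, beside 2.24% of all genes lower. Cd72, a B cell coreceptor, ranged from 7.60 to 17.9 CPM on day 26 (median 15.1) and from 8.03 to 14.6 on day 40 (median 10.5), a log2 change of -0.44 ± 0.13 (SE; edgeR adjusted p = 0.0387). Cd79a and Ms4a1 had estimates of -0.19 and -0.42. Leaving out day 26 replicate 1 gave 14 of 17 lower, where 7.37% of all genes were lower. The call of Cd72 was lost without any of day 26 replicates 2, 3, 5, 6, 7, 8, 9 and 10. It was also lost without day 40 replicate 1, 3, 6, 7, 9 or 10. The summed list ran from 368 to 1181 (median 1048) CPM on day 26 and from 595 to 954 (median 803) on day 40, and its lowest day 26 value was replicate 1. MHC class II genes, which B cells and dendritic cells use to present peptides, gave 0 calls of 10 with a median of -0.24, and 5 lower without that replicate. H2-Aa ranged from 71.1 to 209.8 CPM on day 26 (median 181.7) and from 101.7 to 189.5 on day 40 (median 145.8), with an estimate of -0.31 ± 0.15 (SE; edgeR adjusted p = 0.204), and -0.41 (edgeR adjusted p = 0.00909) without replicate 1.

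Among plasma cell genes 1 of 10 rose, the immunoglobulin constant gene Ighg1, beside 5.64% of all genes tested. Without day 26 replicate 1 the list had 2 higher and 1 lower, beside 10.6% and 7.37% of all genes. Ighg1 ranged from 0.394 to 2.52 CPM on day 26 (median 1.18) and from 1.05 to 6.19 on day 40 (median 2.42). Its log2 change was 1.08 ± 0.28 (SE; edgeR adjusted p = 0.0231). Jchain, Ighg2b, Ighg3 and Igha had estimates of -0.17, 0.11, 0.11 and -0.24 and did not pass. Of 20 T cell genes 0 passed, with a median of -0.06 and a range from -0.21 to 0.20. Il7r, the receptor that maintains naive T cells, ranged from 29.997 to 42.9 CPM on day 26 (median 36.98) and from 30.03 to 49.4 on day 40 (median 36.96), and its estimate was 0.01 ± 0.09 (SE; edgeR adjusted p = 0.957). Of 8 regulatory T cell genes 0 passed, and Foxp3, their transcription factor, had an estimate of 0.88 ± 0.34 (SE; edgeR adjusted p = 0.103).

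Monocyte genes gave 1 higher and 1 lower call of 16 (6.25% each), beside 5.64% higher and 2.24% lower over all genes tested. Those all-gene shares were 10.6% and 7.37% without day 26 replicate 1. The higher count was 3 without day 26 replicate 1, 2 without day 40 replicate 5 or 9, and 0 without day 26 replicate 2, 4, 5, 7, 9 or 10 or day 40 replicate 3, 6, 7, 8 or 10. Csf1r, the receptor for macrophage colony-stimulating factor, ranged from 30.3 to 51.2 CPM on day 26 (median 41.4) and from 39.8 to 74.3 on day 40 (median 58.7), a log2 change of 0.43 ± 0.12 (SE; edgeR adjusted p = 0.0298). Adgre4, an adhesion receptor of monocytes and macrophages, ranged from 18.5 to 38.7 CPM on day 26 (median 26.9) and from 14.7 to 23.4 on day 40 (median 18.4), with 5 day 40 libraries below every day 26 library and a log2 change of -0.61 ± 0.12 (SE; edgeR adjusted p = 0.00625). Ly6c2 and Ccr2 of classical monocytes had estimates of 0.08 and 0.03, and Cx3cr1 and Treml4 of nonclassical ones -0.05 and 0.14. Of 10 tested dendritic cell genes 2 fell, Ccr9 and Klrd1, while Flt3, Siglech and Clec9a had estimates of -0.09, 0.08 and 0.04. The dendritic count was 4 without day 26 replicate 1 and 1 without day 26 replicate 3.

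**Figure D4:**
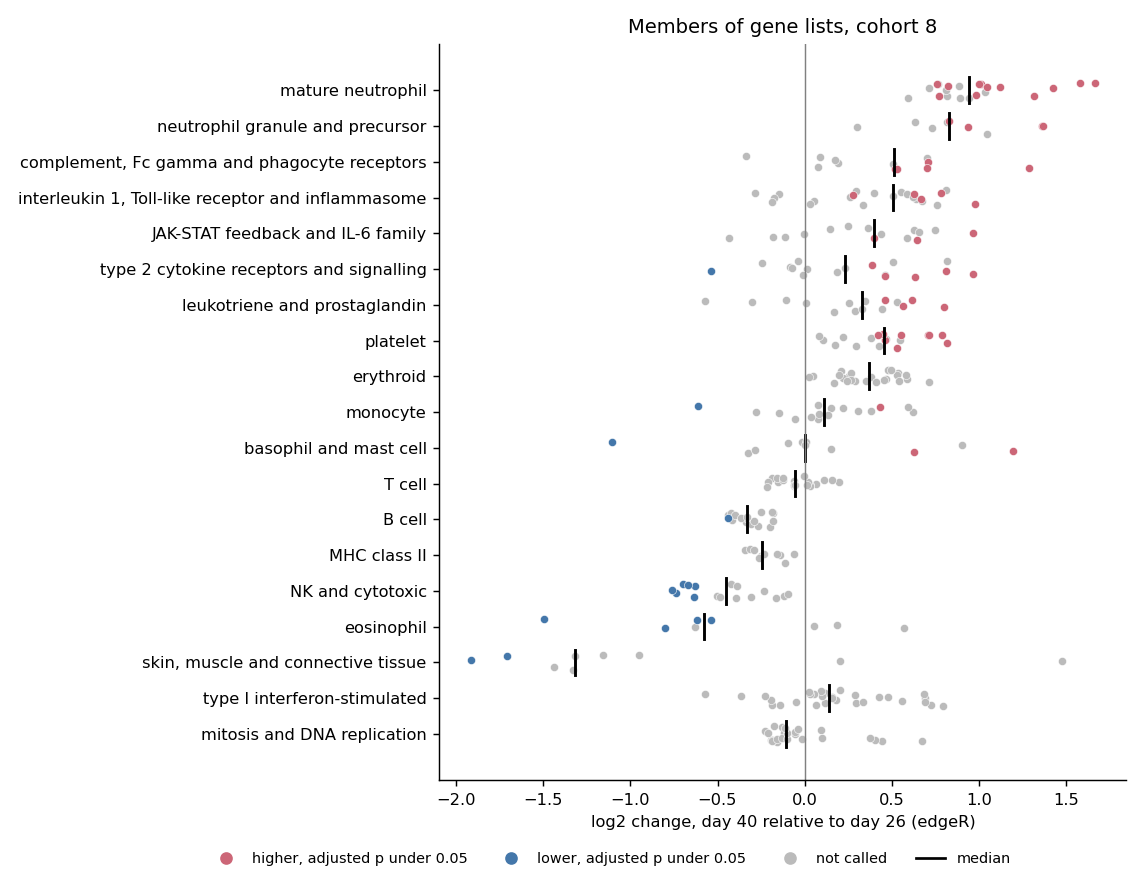
Each point is 1 tested gene of the list on the vertical axis, at its log2 change from day 26 to day 40, red where it was higher and blue where lower at an edgeR adjusted p under 0.05, grey where it did not pass, and black bars mark list medians. The mature neutrophil list has a median of 0.94 and the NK and cytotoxic list of -0.45, while the T cell list has 0 calls and a median of -0.06.

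Erythroid, type I interferon-stimulated and proliferation genes did not pass. The all-gene shares were 5.64% higher and 2.24% lower, and 10.6% and 7.37% without day 26 replicate 1. Of 24 erythroid genes 0 were called, although all 24 estimates were positive with a median of 0.37, and 3 were higher without day 26 replicate 1 and 2 without day 40 replicate 2. Alas2, the first enzyme of haem synthesis in red cells, ranged from 20271 to 49594 CPM on day 26 (median 27948) and from 20870.1 to 68145 on day 40 (median 28202). The 4 globin genes had a median of 0.05. Of 30 type I interferon-stimulated genes 0 were called, with a median of 0.14 and the smallest adjusted p, 0.0550 by edgeR, at Oasl2 with an estimate of 0.79. Without day 26 replicate 6, 2 of them were higher. Of 23 genes induced by interferon gamma, Gbp9, a guanylate-binding protein, fell by 0.29 ± 0.08 on the log2 scale (SE; edgeR adjusted p = 0.0272), a count of 1 that became 0 without day 26 replicate 3, 7 or 10 or day 40 replicate 3 or 7, and 2 without day 26 replicate 1. Of 24 genes of mitosis and DNA replication 0 were called, with Mki67 running from 318 to 939 CPM on day 26 (median 612) and from 478 to 2259 on day 40 (median 591) and the highest value in day 40 replicate 1.

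Lists of other pathways held from 0 to 2 calls each. Over all genes tested 5.64% rose and 2.24% fell, and without day 26 replicate 1 these shares were 10.6% and 7.37%. Of 18 amino acid stress genes 2 rose, Asns, which makes asparagine, by 1.29 ± 0.32 (SE; edgeR adjusted p = 0.0179) and Sesn2, a stress-induced regulator of amino acid sensing, by 0.89 ± 0.21 (SE; edgeR adjusted p = 0.0140), and 4 rose without day 26 replicate 1 or day 40 replicate 2. Of 17 immediate early genes 2 rose, Zfp36, which destabilises cytokine messages, by 0.68 ± 0.14 (SE; edgeR adjusted p = 0.00781) and Ier3 by 1.13 ± 0.28 (SE; edgeR adjusted p = 0.0169), while Fos and Egr1 had estimates of -0.14 and 0.14, and 4 rose without day 26 replicate 1. Of 32 cytosolic ribosomal protein genes 1 fell, Rpl22, with a log2 change of -0.26 ± 0.08 (SE; edgeR adjusted p = 0.0429), and 7 fell without day 26 replicate 1 but 0 without its replicate 2, 3, 4, 5, 7, 9 or 10 or day 40 replicate 1, 3, 6, 7, 8, 9 or 10. Of 27 proteasome genes 2 fell, with log2 changes of -0.27 ± 0.07 (SE; edgeR adjusted p = 0.0165) for Psmd14 and -0.27 ± 0.08 (SE; edgeR adjusted p = 0.0304) for Psma4, and 1 fell without day 26 replicate 3, 4, 7, 9 or 10 or day 40 replicate 3. Of 12 glucocorticoid-responsive and 12 clock genes 0 passed, with 4 glucocorticoid-responsive genes higher without day 26 replicate 1. Clock ranged from 15.9 to 21.7 CPM on day 26 (median 19.2) and from 13.7 to 21.3 on day 40 (median 17.5).

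The largest rises that held without any 1 library were mostly of low-expressed genes. Prok2, a chemokine-like protein made by neutrophils, ranged from 0.0433 to 1.15 CPM on day 26 (median 0.154) and from 0.198 to 3.96 on day 40 (median 0.982), a log2 change of 2.54 ± 0.58 (SE; edgeR adjusted p = 0.0130). Kcnn3, a calcium-activated potassium channel, ranged from 0 to 0.681 CPM on day 26 (median 0.2502) and from 0.697 to 4.79 on day 40 (median 1.08), and its log2 change was 2.50 ± 0.48 (SE; edgeR adjusted p = 0.00661). Its 10 day 40 libraries were all above the highest day 26 library. Overlap was examined for list and named genes only, so its share over all 14086 genes tested is not known. Celsr3, an adhesion receptor, ranged from 0.235 to 1.33 CPM on day 26 (median 0.720) and from 1.28 to 5.43 on day 40 (median 2.32), a log2 change of 1.72 ± 0.28 (SE; edgeR adjusted p = 0.00392). Mov10, an RNA helicase of antiviral defence, ranged from 1.69 to 4.02 CPM on day 26 (median 2.15) and from 3.99 to 15.5 on day 40 (median 5.60), with 9 day 40 libraries above every day 26 library and a log2 change of 1.48 ± 0.23 (SE; edgeR adjusted p = 0.00287). Ankrd22 rose by 1.66, Upp1, which breaks down uridine, by 1.64, the RNA-binding protein Lin28a by 1.62, the transglutaminase Tgm1 by 1.62 and Igfbp6, which binds insulin-like growth factors, by 1.501.

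The largest falls that held without any 1 library included genes known from vessel wall, fat and connective tissue. Rgs5, a pericyte marker, ranged from 2.49 to 7.53 CPM on day 26 (median 4.14) and from 0.349 to 3.71 on day 40 (median 1.17), with 7 day 40 libraries below every day 26 library and a log2 change of -1.54 ± 0.30 (SE; edgeR adjusted p = 0.00662). Fabp4, a fatty acid carrier of adipocytes and capillary endothelium (chromosome 3, 10269148 to 10273636, GRCm39), ranged from 6.997 to 20.5 CPM on day 26 (median 9.70) and from 2.82 to 7.29 on day 40 (median 4.19), with 9 day 40 libraries below every day 26 library and a log2 change of -1.18 ± 0.18 (SE; edgeR adjusted p = 0.00287). Cxcl12, the stromal ligand of Cxcr4, ranged from 0.672 to 2.80 CPM on day 26 (median 1.58) and from 0.366 to 0.995 on day 40 (median 0.610), a log2 change of -1.34 ± 0.25 (SE; edgeR adjusted p = 0.00529). Pparg, the adipocyte transcription factor, ranged from 0.708 to 2.40 CPM on day 26 (median 1.21) and from 0.316 to 1.26 on day 40 (median 0.519), a log2 change of -1.11 ± 0.27 (SE; edgeR adjusted p = 0.0161). Podxl, a sialomucin of endothelium, and Pgm5 had log2 changes of -1.09 ± 0.19 (SE; edgeR adjusted p = 0.00522) and -1.18 ± 0.29 (SE; edgeR adjusted p = 0.0176), and Gask1b, Klhl4 and Fmo2 had changes of -1.10, -1.08 and -1.03.

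Some markers of tissue outside blood were lower on day 40. Of 9 tested members of the skin, muscle and connective tissue list 2 fell, 0 rose and the median was -1.32. The share of all genes that fell was 2.24%, and 7.37% without day 26 replicate 1. The type I collagen gene Col1a1 ranged from 0.650 to 7.58 CPM on day 26 (median 5.60) and from 0.388 to 5.88 on day 40 (median 0.955), and its partner chain Col1a2 ranged from 1.45 to 16.1 CPM on day 26 (median 10.3) and from 0 to 10.04 on day 40 (median 1.12). Their log2 changes were -1.70 ± 0.49 (SE; edgeR adjusted p = 0.0382) and -1.92 ± 0.58 (SE; edgeR adjusted p = 0.0487). The count stayed at 2 without day 26 replicate 1 or day 40 replicate 2, was 1, 4 and 7 without day 26 replicate 7, day 26 replicate 6 and day 40 replicate 5, and was 0 without any other single library. The summed list ran from 13.6 to 115.2 (median 66.8) CPM on day 26 and from 4.21 to 122.8 (median 20.5) on day 40. Day 40 replicates 2, 3 and 5, at 120.4, 122.8 and 100.9 CPM, were each above at least 9 of the 10 day 26 libraries, and the other 7 lay at or below 29.7 CPM. The keratins Krt5, Krt14, Krt10 and Krt1 were too low to test. Blood was drawn from the tail vein, and the part of such tissue in the falls of Rgs5, Fabp4, Cxcl12, Cma1 and the collagens was not tested.

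Spread between libraries differed by list. The SD of log2(CPM + 1) over 10 libraries had a median over all tested genes of 0.21 on day 26 and 0.24 on day 40, and it was higher on day 40 for 62.2% of genes. For the mature neutrophil list it went from 0.73 to 0.51, and it was higher on day 40 for 3 of 21 genes. Without day 26 replicate 1 the day 26 median of that list was 0.47, and 13 of 21 genes (61.9%) were more spread on day 40. Over all tested genes that share was then 80.5%, with a day 26 median of 0.18. In the B cell list the median SD went from 0.49 to 0.32 with all libraries, and from 0.21 to 0.32 without that replicate. For the erythroid list it went from 0.46 to 0.61, higher on day 40 in 24 of 24 genes with and without the replicate. These are descriptions without a test.

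The 14-day change of cohort 8 was compared with that of cohort 9, which has the same interval, later days and higher scores at the first sampling. In a fit of the 40 libraries, 0 of 14900 genes (0%) differed in their change by edgeR at an adjusted p under 0.05, 1505 had an unadjusted p under 0.05, and DESeq2 called 1, Gata2. Within cohort 9 itself 0 of 13689 genes (0%) were called between its samplings by edgeR, and 1876 had an unadjusted p under 0.05. The change of Steap4 was 0.64 ± 0.30 (SE; edgeR adjusted p = 0.361) in cohort 9, a difference of 0.93 ± 0.46 (SE; edgeR adjusted p = 0.490). For C5ar1 the cohort 9 change was 0.37 and the difference 0.90 ± 0.35 (SE; edgeR adjusted p = 0.490). For Klrk1 they were -0.30 and -0.34 ± 0.20 (SE; edgeR adjusted p = 0.521), and for Selp 0.16 and 0.65 ± 0.33 (SE; edgeR adjusted p = 0.490). Gata2 was at a median 1.52 and 2.35 CPM in cohort 8 and at 2.32 and 1.72 CPM in cohort 9. By edgeR a difference between the cohorts is therefore not shown for these genes, and its size is bounded only as their errors allow. For Gata2 the DESeq2 difference was 1.05 ± 0.21 (SE; DESeq2 adjusted p = 0.0226).

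Cohort 6 was sampled on the same second day and on an earlier, less affected first day. Its own change was called in 3809 of 14010 genes (27.2%). The difference of changes passed in 5 of 15076 genes (0.0332%), all smaller in cohort 8, and 2329 had an unadjusted p under 0.05. Of the 5, Dnajb1 and Dnaja1 are cochaperones of HSP70, Hspa1a is an inducible HSP70, Ccdc117 has no role stated here and Gm15542 is a processed pseudogene. Dnajb1 ranged from 11.3 to 31.8 CPM on day 26 (median 19.5) and from 9.80 to 14.8 on day 40 (median 12.5) in cohort 8, a change of -0.70 ± 0.14 (SE; edgeR adjusted p = 0.00625), while it changed by 0.64 ± 0.18 (SE; edgeR adjusted p = 0.0127) in cohort 6. The difference was -1.34 ± 0.24 (SE; edgeR adjusted p = 0.0206). For Hspa1a the changes were -1.29 and 2.16, a difference of -3.46 ± 0.67 (SE; edgeR adjusted p = 0.0270), and for Ccdc117 they were -0.47 and 0.31, a difference of -0.77 ± 0.15 (SE; edgeR adjusted p = 0.0270). Neutrophil genes moved alike in sign, Steap4 by 1.95 and Lcn2 by 1.84 in cohort 6.

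In the SPF controls 0 of 14184 genes (0%) were called between day 16 and day 44 by edgeR, and 1413 had an unadjusted p under 0.05. One day 16 library of this cohort held 45.3% globin counts. The change in cohort 8 differed from that in the SPF cohort for 3 of 15774 genes (0.019%), again all smaller in cohort 8, namely Adgre4, Naip5 and Serpinb10, and 1808 had an unadjusted p under 0.05. In the fit of all 190 libraries 0 of these 3 were called, and the 3 other genes called there were larger in cohort 8. Adgre4 had a change of -0.61 ± 0.12 (SE; edgeR adjusted p = 0.00625) in cohort 8, had an estimate of 0.71 ± 0.16 (SE; edgeR adjusted p = 0.0899) in the SPF mice, and differed by -1.31 ± 0.21 (SE; edgeR adjusted p = 0.00358). Naip5, a sensor of bacterial flagellin, had estimates of -0.28 and 0.85, a difference of -1.12 ± 0.18 (SE; edgeR adjusted p = 0.00358). Serpinb10, annotated as a polymorphic pseudogene, had a median of 8.96 and 6.07 CPM in cohort 8 and of 6.48 and 13.1 CPM in the SPF cohort. The SPF change of Steap4 was 1.35 ± 0.50 (SE; edgeR adjusted p = 0.345), which is not a call, and its difference from cohort 8 was 0.24 ± 0.65 (SE; edgeR adjusted p = 0.933). The SPF levels of the summed mature neutrophil list ran from 373 to 1571 (median 569) CPM on day 16 and from 488 to 861 (median 827) on day 44.

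**Figure D5:**
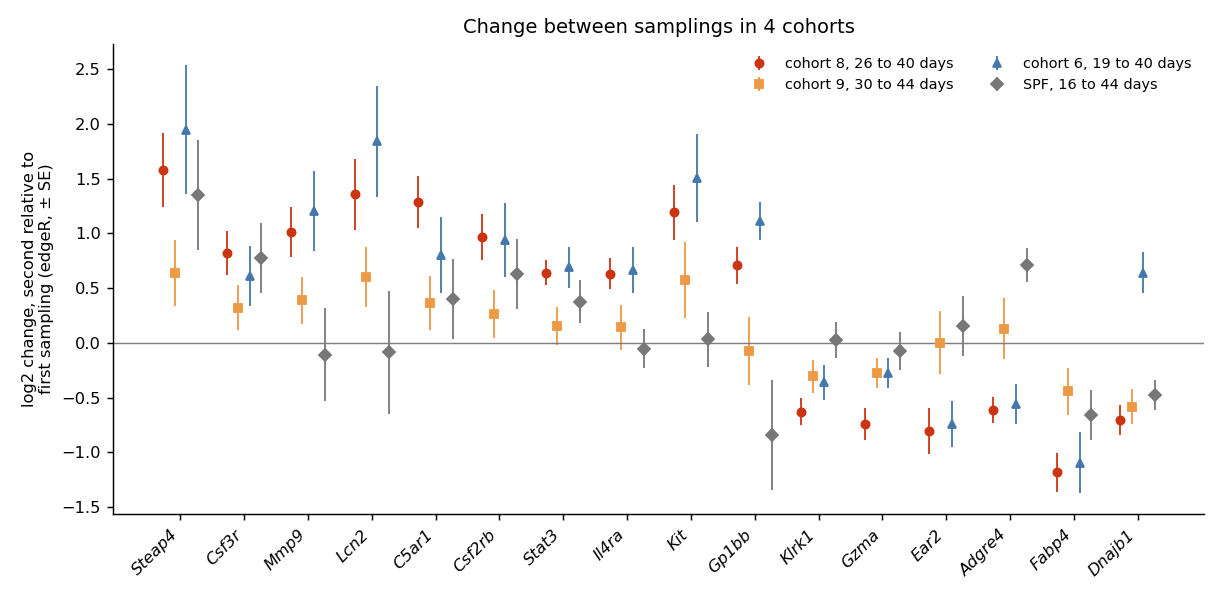
Points give the log2 change between the 2 samplings of each cohort from separate edgeR fits, with SE as error bars, for cohort 8 (26 to 40 days), cohort 9 (30 to 44 days), cohort 6 (19 to 40 days) and the SPF cohort (16 to 44 days). The cohort 8 change of Dnajb1 is -0.70 where that of cohort 6 is 0.64, and the cohort 8 change of Adgre4 is -0.61 where that of the SPF cohort is 0.71.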

How the data were processed

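RNA was isolated from about 0.1 mL of tail vein blood with the NucleoSpin RNA Blood kit, and libraries were made with a stranded total-RNA kit that depletes ribosomal and globin RNA, per the labels' protocols. The authors deposited expected counts per gene and, beside them, TPM values. DRAGEN and the genome build GRCm39 are named in the submitters' processing notes, but its version and the annotation were not given in the sources used here. In the expected counts, 2.86% of values were not whole, and all were rounded.

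Of 55414 genes, those passing filterByExpr (minimum count 10, minimum total 15) in the groups of a fit were tested with edgeR's robust quasi-likelihood test, two-sided, after TMM scaling (edgeR 4.0.16, limma 3.58.1, DESeq2 1.42.0, R 4.3.3), with calls at an adjusted p (Benjamini-Hochberg) under 0.05. SE is the absolute log2 change divided by the square root of F. CPM used TMM factors over all 190 libraries, and TPM served only to order genes by level. The 32 gene lists and the members were chosen with earlier results of these data known, and 550 of 551 list genes were in the table. Named by rule were the 10 largest rises and falls among protein-coding called genes with a mean CPM of at least 1 on either day whose call held without any 1 library, up to 3 called members per list with the smallest p (or the 2 highest in level where none was called), and up to 3 called genes per difference in each direction. Other list members in the text were chosen after their values were seen. Same-number libraries had correlations of -0.24 to 0.18 between their deviations from the day means, with 1 of 10 over 0.1, so the numbers were not taken to pair libraries. The procedure was tested on simulated data with known changes. For cohort 8 it recovered 86.7% of genes changed by 1 and 98.9% of those changed by 2 on the log2 scale (13888 genes). For the difference from cohort 9 it recovered 49% and 85.7% (14680 genes), and for that from the SPF cohort 33.7% and 82.8% (15442 genes). Promoter windows came from RefSeq (GRCm38.p6) by symbol, and no coordinate was converted between builds. One gene of the lists is not reported here by name.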

Additional observations from a re-analysis of the deposited data

Results flagged for a closer look

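Among 192 checks of a group of 10 libraries for 1 value far from the rest, 25 met Dixon's 95% criterion. By chance about 1 in 20 independent checks would, but these share libraries and genes that move together. Most of the 25 were in day 26 replicate 1. On the log2(CPM + 1) scale that library lay above the other 9 of its day for Prok2 (1.10), Ankrd22 (2.71), Lin28a (1.24), Igfbp6 (1.55), Fabp4 (4.43), Fmo2 (2.75), Mmp8 (7.28), Alas2 (15.60), Il4ra (6.12), Alox5ap (7.35), Nusap1 (9.06), Tsc22d3 (7.65) and Dusp1 (6.23). It lay below them for Cd72 (3.10), H2-Aa (6.17), H2-Eb1 (4.63) and Nr1d2 (3.63). Its neutrophil, haem, glucocorticoid-responsive and tissue genes were therefore high together, and its B cell and class II genes low together.

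On day 40, replicate 1 was far above its fellows for Mki67 (11.14) and below them for Cma1 (0.28), replicate 3 was above them for Lin28a (2.01) and below for Psma4 (3.37), replicate 5 was above for Pgm5 (2.21), and replicate 10 was above for Cxcr4 (5.95), all on the same log2 scale. Of the library measures, the total count of day 26 replicate 7 (71967285) and the globin share of day 40 replicate 6 (13.4%) stood apart.

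Among the changes that differed between cohorts by edgeR's test of the difference were those of Dnajb1 (-1.34), Hspa1a (-3.46) and Ccdc117 (-0.77) against cohort 6 and those of Adgre4 (-1.31) and Naip5 (-1.12) against the SPF cohort, each on the log2 scale and each smaller in cohort 8. Adgre4 was at median levels of 26.9 and 18.4 CPM in cohort 8 and of 14.1 and 22.8 CPM in the SPF mice.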

How the results depend on the processing

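For the change within cohort 8, the 1111 genes became 1058 with DESeq2 size factors, 1559 by DESeq2, 745 without a count filter and 1107 without globin, mitochondrial rRNA and Rn7s rows. They became 583 with the globin and mitochondrial rRNA shares as covariates, 488 with the dermatitis score as a covariate (287 of them among the 1111, and 60.5% higher against 71.6%), 301 in libraries scored 1 or more and 237 in the fit of all 190 libraries (196 of them among the 1111). With 1 library left out the count ran from 545 to 2552. The cause of these shifts was not tested, and the fits with a library left out or limited to scored libraries hold fewer libraries. None of the 93 named genes was classed as reversed under any alternative or omission run, and 51 lost their call with the score as a covariate. The 93 include genes not called in cohort 8, such as H2-Aa and Il7r, so fewer than 93 calls could be lost. Those 51 are not listed here by name. Small estimates of uncalled named genes did change sign with 1 library left out. The log2 change then ran from -0.03 to 0.05 for Il7r, from -0.06 to 0.05 for Ikzf2 and from -0.06 to 0.20 for Bpgm.

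With the replicate number as a block, 1114 genes were called, of which 885 were among the 1111. The block left 0 genes for the difference from cohort 9, 0 for that from cohort 6 and 5 for that from the SPF cohort. Each number was the best match of its own partner in 1 of 10 cases.

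The difference from cohort 9 was 0 under every alternative except DESeq2, with 1 gene. The difference from cohort 6 was 35 genes by DESeq2, 16 without a count filter, 8 with the RNA shares as covariates, 16 with the score as a covariate and 62 in the fit of all 190 libraries. The difference from the SPF cohort was 30 genes by DESeq2, 5 without the abundant RNA rows and from 3 to 5 with 1 SPF replicate number left out. In the fit of all 190 libraries it was 3 genes, of which 0 were among the 3 reported. Genes under the count filter, such as Mpo and Elane, could not be compared at this depth.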

Other observations

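The families below were looked up after the values of the comparison had been seen, so their counts are descriptions and support nothing by themselves. Over all genes tested 5.64% were called higher and 2.24% lower, and 10.6% and 7.37% without day 26 replicate 1. Of 17 tested genes of the Klra, Klrb, Klrc, Klri and neighbouring families 11 were lower and 0 were higher, with 14 lower without that replicate. Klrk1, Klrb1c, Klre1, Klra8 and Klrd1, described above, are 5 of the 11. Klra1 ran from 9.28 to 17.1 CPM on day 26 and from 5.03 to 10.2 on day 40, a log2 change of -0.86 ± 0.14 (SE; edgeR adjusted p = 0.00287), and Klra4 changed by -0.95 ± 0.18 (SE; edgeR adjusted p = 0.00525). Klra7, Klrc2 and Klrb1b had changes of -0.68, -0.57 and -0.62. Klrb1a and Klrg1 did not pass, with -0.41 ± 0.25 (SE; edgeR adjusted p = 0.306) and -0.39 ± 0.19 (SE; edgeR adjusted p = 0.210). Members of the Klra family are near-identical, and the counting may split their reads.

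Focal adhesion and actin-linked genes rose in 9 of 12 cases, with 0 lower, and in 12 of 12 without day 26 replicate 1. The mature neutrophil and platelet lists, from cells that carry these genes, had 12 of 21 and 9 of 18 members higher in the same libraries, and their part was not tested. Zyx, which marks adhesion sites under tension, ranged from 21.2 to 48.97 CPM on day 26 (median 31.2) and from 39.99 to 74.05 on day 40 (median 58.3), a log2 change of 0.85 ± 0.14 (SE; edgeR adjusted p = 0.00289). Pxn, the adhesion adaptor paxillin, changed by 1.00 ± 0.18 (SE; edgeR adjusted p = 0.00522), and Rhog, a small GTPase of leukocyte migration, by 0.83 ± 0.13 (SE; edgeR adjusted p = 0.00289). Vcl, Flna and Fermt3 passed only without that replicate, and with all libraries had estimates of 0.40, 0.36 and 0.40.

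Genes of the vessel wall fell in part, with 7 of 18 lower and 1 higher, and 7 and 2 without day 26 replicate 1. Cd34, on endothelium and progenitors, ranged from 1.04 to 3.76 CPM on day 26 (median 1.82) and from 0.574 to 1.67 on day 40 (median 0.975), a log2 change of -0.95 ± 0.21 (SE; edgeR adjusted p = 0.0101), and Ptprb, the vascular endothelial phosphatase, changed by -1.05 ± 0.28 (SE; edgeR adjusted p = 0.0248). Adgrf5 and Egfl7 had changes of -1.01 and -0.66. The defining endothelial genes Cdh5, Kdr and Flt1 did not pass, with -0.65, 0.09 and 0.04, and Vwf, which platelets also carry, was the gene that rose, by 0.72. The summed skin, muscle and connective tissue list went from a median of 66.8 to 20.5 CPM in the same libraries, and its part in these changes was not tested.

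Heat shock genes were lower in 4 of 13 cases and higher in 0, and lower in 3 without day 26 replicate 1. Dnaja1 ranged from 61.3 to 138.3 CPM on day 26 (median 100.1) and from 52.8 to 85.7 on day 40 (median 72.8), a log2 change of -0.53 ± 0.13 (SE; edgeR adjusted p = 0.0150), and Chordc1, an HSP90 cochaperone, changed by -0.36 ± 0.11 (SE; edgeR adjusted p = 0.0389). The abundant chaperones Hspa8, Hsph1 and Hsp90aa1 did not pass, with estimates of -0.04, -0.15 and -0.12. Hspa1a lost its call without day 26 replicate 1, whose 4.19 CPM was the highest of the 20 libraries, with -0.92 (edgeR adjusted p = 0.0558) in place of -1.29 ± 0.39 (SE; edgeR adjusted p = 0.0443).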
